A study of Mus musculus with 7 samples.

Results

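The regions assigned to 7 genes of glycolysis and the hypoxia response were examined: Hif1a, Slc2a1, Hk2, Pfkfb3, Ldha, Pgk1 and Gapdh. All regions annotated to one of these genes and lying within 100 kb of its transcription start site (TSS) were taken, which gave 71 of the 93611 regions in the deposited table. The deposited annotation gives each region to the gene with the nearest TSS, so a region may lie within another gene. Hk2 had 19 regions, Hif1a 16, Pfkfb3 13, Slc2a1 9, Ldha 7, Pgk1 4 and Gapdh 3. A further 10 regions of Hif1a lay beyond the limit. The nearest of them, at -101663 bp, had 5.09 RPKM for RelB after 1 h in WT cells, and the outermost region kept, at -82292 bp, had 9.45 RPKM.

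Binding was measured by chromatin immunoprecipitation and sequencing (ChIP-seq) in C57BL/6 bone marrow-derived dendritic cells (BMDCs), which were grown from femur marrow with GM-CSF and IL-4. RelBko cells, which lack RelB, gave a RelB ChIP after 1 h of lipopolysaccharide (LPS, 10 ng/mL), a RelB ChIP without treatment (0 h) and a RelA ChIP after 1 h of LPS. Wild-type (WT) cells gave the same 3 ChIP libraries and an input library, for which the labels give no time or treatment. How the Relb gene was removed, the sex and age of the mice and how many animals gave each library are not given in the labels. Each group held 1 library, so no difference between genotypes, times or antibodies has a replicate check, and no p-value is given. The antibody labels name RelB or RelA, whereas the extraction protocol names an antibody to RelA alone. The study asks how loss of RelB affects DNA binding of RelA. LPS is the stimulus in the sample labels, although the reagent listed in the treatment protocol carries the name of a CpG oligonucleotide.

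NF-kB dimers bind DNA through subunits such as RelA and RelB. Dendritic cells that sense LPS quickly raise glycolysis, and Hif1a, which encodes the oxygen-sensitive subunit of the hypoxia-inducible factor HIF-1, is a known NF-kB target gene. HIF-1 in turn binds hypoxia response elements, whose core is often ACGTG, near genes of glucose uptake and glycolysis such as the other 6 genes.

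Libraries held 13188833 to 35064429 reads. RelB ChIP from RelBko cells had 4.62% of its reads in the 93611 regions at 1 h and 7.41% at 0 h, against 42.4% at 1 h and 38.4% at 0 h in WT cells. RelA ChIP had 37.2% in RelBko cells and 37.9% in WT cells, and the input had 3.52%. At the Relb promoter, RelB signal was 4.18 RPKM in RelBko cells and 49.3 RPKM in WT cells at 1 h, and DNA reads there do not show the deletion itself. Around 9 dendritic cell marker genes the median of the strongest regions was 86.5 RPKM for RelB after 1 h in WT cells, against 2.41 RPKM for 4 neutrophil genes, 7.30 RPKM for 3 B cell genes and 21.3 RPKM for 4 T and NK cell genes, although binding near a gene is not its RNA level and does not check the cell type. RPKM is reads per kilobase of region, scaled to the size of the library. Log2 ratios were taken after adding 0.5 RPKM, which shrinks the ratios of weak regions. A region counted as enriched at 2 RPKM or more and 2-fold or more over input. Those enriched in either library of a comparison were compared, and a difference of 2-fold or more was called. Ratios of reads carry exact (Clopper-Pearson) 95% intervals that cover counting error only; copies of 1 molecule made by PCR could not be told apart.

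Promoter sequences of the 4 genes whose promoter windows in the reference lie at a bound region are shown first, since RelA signal differs 2-fold or more between genotypes at the Pgk1 promoter region and not at those of the other 3. Each is the stretch of 250 bases before the TSS in RefSeq (build GRCm38.p6), 5′ to 3′, in lower case. Capitals mark matches, on either strand, to the hypoxia core ACGTG or to a loose NF-kB pattern, GGG and CC with any 5 bases between them. The regions themselves are given in mm9, the build named in the submitters' processing notes, and the 2 sets of coordinates are not to be mixed.
Pgk1 promoter, chrX:106186850-106187099, strand +: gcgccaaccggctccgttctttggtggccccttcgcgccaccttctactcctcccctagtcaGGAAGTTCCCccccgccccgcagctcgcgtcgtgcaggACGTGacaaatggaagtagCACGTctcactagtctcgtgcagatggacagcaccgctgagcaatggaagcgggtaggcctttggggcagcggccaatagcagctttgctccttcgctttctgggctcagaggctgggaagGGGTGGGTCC
Hif1a promoter, chr12:73907617-73907866, strand +: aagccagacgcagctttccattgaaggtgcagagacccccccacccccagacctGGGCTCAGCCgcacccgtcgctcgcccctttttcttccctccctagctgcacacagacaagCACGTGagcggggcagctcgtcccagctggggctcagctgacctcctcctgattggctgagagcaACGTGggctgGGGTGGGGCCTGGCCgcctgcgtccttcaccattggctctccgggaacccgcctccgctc
Pfkfb3 promoter, chr2:11553930-11554179, strand -: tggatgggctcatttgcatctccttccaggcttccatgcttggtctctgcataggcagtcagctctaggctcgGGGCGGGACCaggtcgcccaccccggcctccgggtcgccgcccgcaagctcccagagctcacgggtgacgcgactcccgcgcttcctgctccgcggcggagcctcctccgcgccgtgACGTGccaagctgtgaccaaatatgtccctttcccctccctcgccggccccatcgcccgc
Ldha promoter, chr7:46845554-46845803, strand +: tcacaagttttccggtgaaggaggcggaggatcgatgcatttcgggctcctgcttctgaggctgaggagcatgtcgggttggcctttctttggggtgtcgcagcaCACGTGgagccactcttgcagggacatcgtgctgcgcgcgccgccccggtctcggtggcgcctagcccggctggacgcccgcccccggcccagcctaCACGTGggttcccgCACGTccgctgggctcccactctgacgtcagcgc
Ldha second promoter, chr7:46846832-46847081, strand +: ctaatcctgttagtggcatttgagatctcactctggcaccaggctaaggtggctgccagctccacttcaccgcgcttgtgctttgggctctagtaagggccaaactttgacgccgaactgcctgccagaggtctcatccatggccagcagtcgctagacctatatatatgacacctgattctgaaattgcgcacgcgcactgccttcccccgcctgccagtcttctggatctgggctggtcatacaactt

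The RefSeq table held promoters for all 7 genes, 9 in all. The Pgk1 promoter held 2 NF-kB patterns and 2 hypoxia cores, that of Hif1a held 3 of each, that of Pfkfb3 held 1 of each, and the first of Ldha held 5 hypoxia cores and 0 NF-kB patterns. The second promoter of Ldha, whose start has a bound region at -56 bp, held 0 of each, as did that of Gapdh, which lies 694 bp downstream of the first Gapdh start. Slc2a1 held 1 of each, Hk2 1 NF-kB pattern and 2 hypoxia cores, and the second promoter of Pfkfb3 2 of each. The palindrome CACGTG counts as 2 matches that overlap, 1 on each strand, and 2 of the NF-kB patterns of Hif1a overlap too. Among all 32851 promoters of the same length, 45.8% held the NF-kB pattern and 16.6% the hypoxia core. The GC content of the promoters shown was 62.8% for Pgk1, 66.4% for Hif1a, 68.4% for Pfkfb3 and 67.2% and 54.4% for Ldha, against a median of 52.4%. A match is a description of the letters and not a binding site. Other forms of the hypoxia core were not searched, so a count of 0 covers ACGTG alone.

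In WT cells RelB and RelA signal was found at most of the 71 regions. Enriched over input were 62 of 71 for RelB at 1 h, against 81.7% of all regions, 60 for RelB at 0 h (75.9% of all regions) and 62 for RelA at 1 h (82.0%). In RelBko cells RelA was enriched at 59 of 71 (75.9% of all regions) and RelB at 3 at 1 h (6.36%) and 23 at 0 h (24.1%). Slc2a1 at 31522 bp and Pgk1 at -21880 and -15649 bp were enriched in none of the 6 ChIP libraries. Of the 71 regions, 7 were promoters, 32 introns and 32 intergenic, and the promoter share of 9.86% compares with 11.0% over all regions. By the mean over the 6 ChIP libraries, the strongest regions of Slc2a1, Hk2 and Pfkfb3 were intronic, that of Hif1a lay upstream, and those of Ldha, Pgk1 and Gapdh were promoters.

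**Figure D1:**
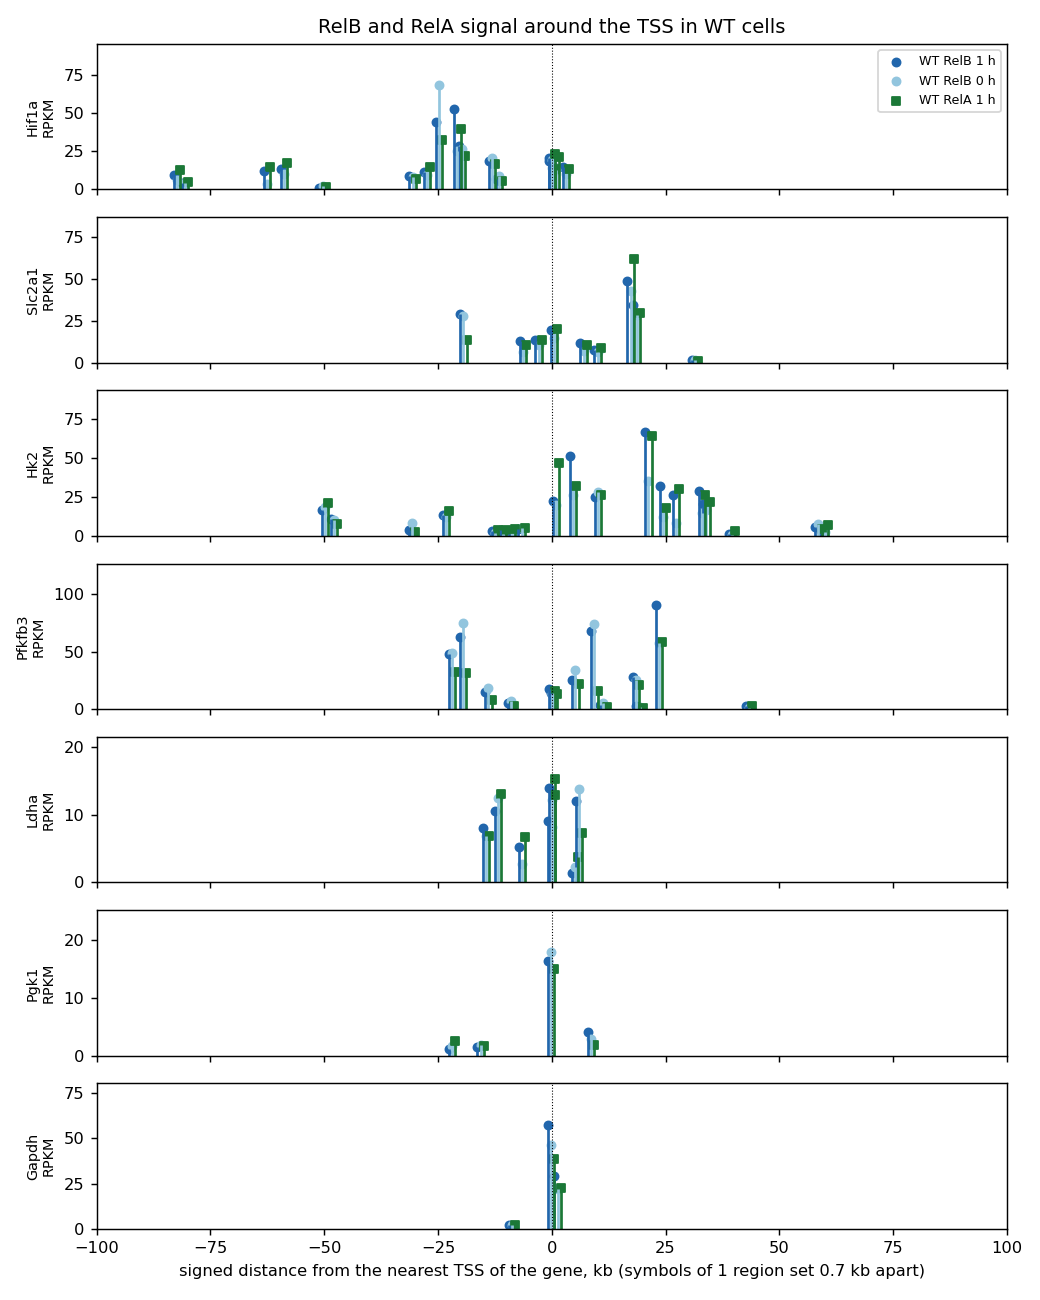
RPKM of each region (vertical axis, linear, from 0) against its signed distance from the nearest TSS of its gene in kb, for RelB at 1 h, RelB at 0 h and RelA at 1 h in WT cells, 1 panel per gene. Pfkfb3, Hk2, Hif1a and Slc2a1 reach more than 40 RPKM at sites 17 to 25 kb from the TSS, while Pgk1 and Ldha stay below 20 RPKM.

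Hif1a, the hypoxia regulator itself, was bound upstream as well as at its 2 promoters. Its strongest region lay at -24776 bp (chr12:74977354-74977717, intergenic). RelB signal there was 3.10 RPKM (1 h) and 5.18 RPKM (0 h) in RelBko cells, against 44.3 RPKM (1 h) and 68.0 RPKM (0 h) in WT cells. RelA signal was 25.6 RPKM in RelBko cells and 32.5 RPKM in WT cells, with 1.25 RPKM in the input. RelB was weak in both RelBko libraries, and RelA was lower in RelBko cells by less than 2-fold, with a ratio of reads of 0.787 (95% interval 0.649 to 0.956). The promoter nearest to a TSS (29 bp, chr12:75002150-75002531) had RelB at 2.55 RPKM (1 h) and 4.94 RPKM (0 h) in RelBko cells, against 18.7 RPKM (1 h) and 14.0 RPKM (0 h) in WT cells. RelA there was 16.4 RPKM in RelBko cells and 13.1 RPKM in WT cells, and the input was 1.39 RPKM. The promoter at 56 bp (chr12:75008719-75009101), which serves the start whose sequence is shown, had RelA at 29.4 RPKM in RelBko cells and 23.3 RPKM in WT cells. The 16 regions ran from 0.80 to 52.8 RPKM for RelB in WT cells at 1 h.

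Slc2a1 encodes the glucose transporter of the cell surface that many cells use for basal uptake. Its strongest region was intronic (17318 bp, chr4:118798498-118798838). RelB signal was 1.96 RPKM (1 h) and 5.20 RPKM (0 h) in RelBko cells, against 48.7 RPKM (1 h) and 42.5 RPKM (0 h) in WT cells. RelA signal was 58.5 RPKM in RelBko cells and 62.0 RPKM in WT cells, and the input had 1.56 RPKM. RelA at this site did not differ beyond counting error (ratio 0.944, 0.822 to 1.08). Nearest to the TSS, at 471 bp (chr4:118781593-118782050), RelB was 2.35 RPKM (1 h) and 5.49 RPKM (0 h) in RelBko cells, against 19.6 RPKM (1 h) and 14.7 RPKM (0 h) in WT cells. RelA was 17.5 RPKM in RelBko cells and 20.1 RPKM in WT cells, with 2.48 RPKM in the input.

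Hk2 encodes an inducible hexokinase, which traps glucose in the cell as the first enzyme of glycolysis. Its strongest region lay in an intron (21239 bp, chr6:82703011-82703407). RelB signal was 3.36 RPKM (1 h) and 4.61 RPKM (0 h) in RelBko cells, against 66.5 RPKM (1 h) and 35.0 RPKM (0 h) in WT cells. RelA signal was 63.3 RPKM in RelBko cells and 64.2 RPKM in WT cells, and the input had 2.48 RPKM. RelB and RelA were thus alike in strength in WT cells at 1 h here, and RelB was higher at 1 h than at 0 h. The region nearest to the TSS (943 bp, chr6:82723189-82723822) had RelB at 3.88 RPKM (1 h) and 5.23 RPKM (0 h) in RelBko cells, against 22.1 RPKM (1 h) and 19.7 RPKM (0 h) in WT cells. RelA there was 49.4 RPKM in RelBko cells and 46.4 RPKM in WT cells, with 1.20 RPKM in the input.

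Pfkfb3 encodes an enzyme that makes the activator of phosphofructokinase and so speeds glycolysis. It held the highest RelB value of all 71 regions in WT cells, at 23618 bp in an intron (chr2:11451768-11452109). RelB signal was 2.85 RPKM (1 h) and 5.85 RPKM (0 h) in RelBko cells, against 90.4 RPKM (1 h) and 57.1 RPKM (0 h) in WT cells. RelA signal was 58.8 RPKM in RelBko cells and 58.2 RPKM in WT cells, with 1.55 RPKM in the input. Its promoter (10 bp, chr2:11475356-11475737), whose sequence is shown, was weaker. RelB there was 2.55 RPKM (1 h) and 3.74 RPKM (0 h) in RelBko cells, against 17.3 RPKM (1 h) and 13.0 RPKM (0 h) in WT cells. RelA was 15.7 RPKM in RelBko cells and 15.9 RPKM in WT cells, and the input had 1.19 RPKM. Distances of Pfkfb3 regions are from the nearest of its starts. For the regions at -8948, -13909 and -19494 bp, that start lies 51839 bp downstream of the start used at 10, 9378 and 23618 bp.

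Ldha, which encodes a subunit of the enzyme that turns pyruvate into lactate, had no region above 17.1 RPKM in any library. At its strongest region, the promoter at 20 bp (chr7:54100951-54101438), RelB was 2.21 RPKM (1 h) and 2.93 RPKM (0 h) in RelBko cells, against 14.0 RPKM (1 h) and 12.2 RPKM (0 h) in WT cells. RelA was 17.1 RPKM in RelBko cells and 15.4 RPKM in WT cells, and the input, at 2.49 RPKM, was among the highest of the 71 regions. The 7 regions of Ldha had a median of 9.15 RPKM for RelB in WT cells at 1 h. This compares with 13.3 RPKM over all 71 regions and 6.28 RPKM over the 93611.

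Pgk1, on the X chromosome, encodes phosphoglycerate kinase, which catalyses the first ATP-forming step of glycolysis. Its promoter region (-198 bp, chrX:103382065-103382418) had RelB at 3.19 RPKM (1 h) and 9.69 RPKM (0 h) in RelBko cells, against 16.3 RPKM (1 h) and 18.0 RPKM (0 h) in WT cells. RelA was 44.0 RPKM in RelBko cells and 14.9 RPKM in WT cells, with 2.14 RPKM in the input. The RelA library of RelBko cells therefore stood above every other library at this promoter. The other 3 Pgk1 regions had 1.36 to 2.26 RPKM of RelA in RelBko cells and 1.66 to 2.52 RPKM in WT cells.

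Gapdh encodes the glycolytic enzyme that yields NADH and is often used as a reference gene. Its promoter region (-193 bp, chr6:125116500-125116856) had RelB at 3.45 RPKM (1 h) and 6.09 RPKM (0 h) in RelBko cells, against 57.5 RPKM (1 h) and 46.7 RPKM (0 h) in WT cells. RelA was 40.1 RPKM in RelBko cells and 38.7 RPKM in WT cells, with 2.12 RPKM in the input. In each of the 3 ChIP libraries of WT cells, Gapdh had the highest signal of the 7 promoter regions. Ldha, Pgk1 and Gapdh have processed copies elsewhere in the mouse genome, and how reads with several matches were treated is not given in the sources used here.

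**Figure D2:**
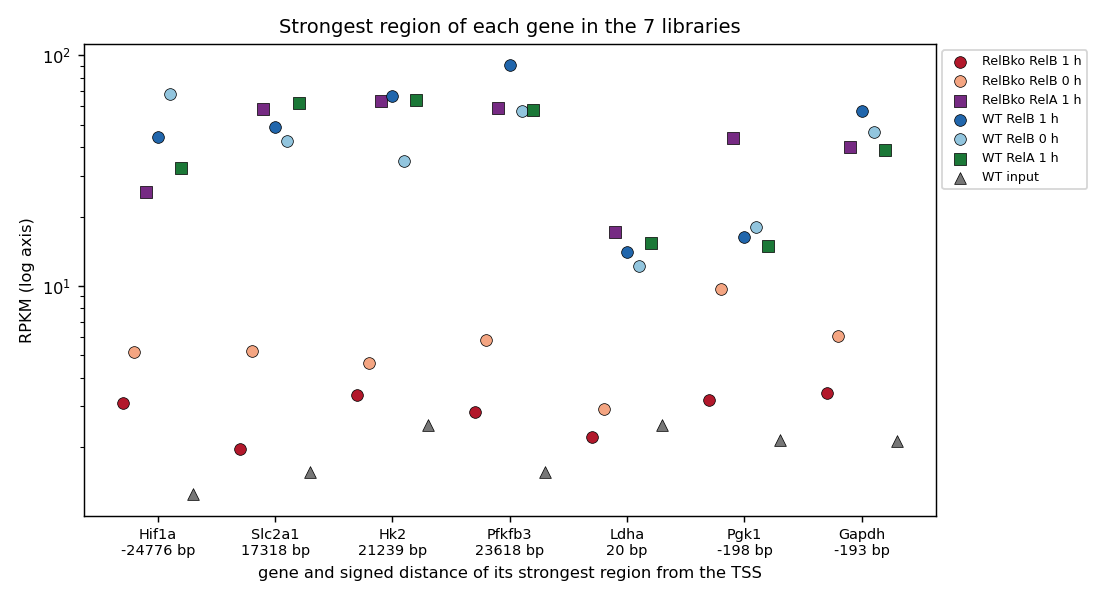
RPKM (log axis) in all 7 libraries at the strongest region of each gene, with its signed distance from the TSS below the gene name; each symbol is 1 library. RelB from RelBko cells lies between 1.96 and 9.69 RPKM, below every ChIP library of WT cells, and RelA lies close together in both genotypes except at Pgk1, with 44.0 RPKM in RelBko cells and 14.9 RPKM in WT cells.

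RelB ChIP was first set between genotypes, to find signal that depends on the cells having RelB. At 1 h RelB signal was lower in RelBko cells at 61 of the 62 compared regions and higher at 0, against 95.9% lower and 0.128% higher over all compared regions, a background that leaves little to read from the count. The median log2 ratio was -2.84 for the members and -2.47 over all. The exception was a weak Hk2 region at -12417 bp, with 1.48 RPKM in RelBko cells and 3.22 RPKM in WT cells. It fell short of the call only after 0.5 RPKM was added (log2 -0.91). The lowest log2 ratio was -5.17, in Pfkfb3 at -19494 bp (chr2:11443027-11443396), with 1.25 RPKM in RelBko cells and 62.5 RPKM in WT cells, so that WT had 50.1 times as much (26.2 to 110). Only 164 of the 76583 compared regions were as low. By gene, the median log2 ratio was -3.69 for Gapdh, -3.45 for Pfkfb3, -3.32 for Slc2a1, -3.21 for Hk2, -2.75 for Hif1a, -2.33 for Ldha and -2.00 for Pgk1. Scaling to a median ratio of 1 over compared regions, which moves the log2 ratio by 2.47, left 19 lower and 3 higher. It turned the strongest regions of Ldha and Pgk1 to 0.05 and 0.28. Scaling to a median ratio of 1 over regions enriched in no ChIP library left 58 lower and 0 higher.

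At 0 h RelB was lower in RelBko cells at 55 of 60 compared regions and higher at 0, against 86.0% and 0.504% over all compared regions. The median log2 ratio was -1.98 for the members and -1.85 over all, and scaling to a median ratio of 1 left 10 lower and 3 higher. Scaled over regions enriched in no ChIP library, 46 were lower and 0 higher. Pfkfb3 again held the lowest value, -5.13, now in its intron at 9378 bp (chr2:11466004-11466352), where RelB was 1.64 RPKM in RelBko cells and 74.4 RPKM in WT cells. WT had 45.4 times as much (24.6 to 95.1), and 65 of 71649 compared regions were as low. The Pgk1 promoter stayed within 2-fold (log2 -0.86), with 9.69 RPKM in RelBko cells, the highest of the 71 regions in that library, and 18.0 RPKM in WT cells. Of all 93611 regions, 0.761% had as much in that RelBko library, whereas 16.8% had as much in WT cells at 0 h.

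RelB ChIP in RelBko cells was also set between times. Signal was lower at 1 h than at 0 h at 11 of 24 compared regions and higher at 0, against 44.1% and 0.863% over all compared regions, with a median log2 ratio of -0.90 for the members and -0.93 over all. The Pgk1 promoter had 3.19 RPKM (1 h) and 9.69 RPKM (0 h), a ratio of 0.329 (0.192 to 0.544), and the strongest Slc2a1 region had 1.96 RPKM (1 h) and 5.20 RPKM (0 h), a ratio of 0.376 (0.181 to 0.740). Most compared regions entered through the 0 h library. None of the 11 stayed lower when scaled to a median ratio of 1 over compared regions, which moves the log2 ratio by 0.93. Scaled over regions enriched in no ChIP library, 10 stayed lower.

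RelA ChIP at 1 h was the central comparison of the study. RelA signal near these genes was mostly alike in RelBko and WT cells, as it was over all compared regions. Of 64 compared regions 3 were lower in RelBko cells and 1 was higher, against 4.94% lower and 1.30% higher over all compared regions. The median log2 ratio was -0.08 for the members and -0.06 over all, and 11 regions had an interval below 1 and 4 an interval above 1, against 15.0% below and 9.13% above over all compared regions.

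The Pgk1 promoter region was the 1 region called higher. RelA was 44.0 RPKM in RelBko cells (373 reads) and 14.9 RPKM in WT cells (93 reads), a ratio of 2.94 (2.34 to 3.74) and a log2 ratio of 1.53. As high a log2 ratio was found at 124 of 80885 compared regions. Among 282 compared promoters of the X chromosome it was the 1 called higher, and their median log2 ratio was 0.06, against 0.09 for 9755 promoters of other chromosomes. The 75 other compared regions within 1 Mb had a median of -0.01, with 2 called higher and 3 called lower, and the highest of them, at 1.94, lay above the Pgk1 promoter. The RelB library of RelBko cells at 0 h was also high at this promoter, as given above. At 1 h that ChIP had 3.19 RPKM in RelBko cells, where 4.47% of all regions had as much. In WT cells at 1 h RelB was 16.3 RPKM, and 22.2% had as much. No input of RelBko cells was analysed here and the make-up of the knockout allele is not given in the labels, so more binding at this promoter and more copies of its sequence in RelBko cells, such as a Pgk1 promoter within the targeted allele, cannot be told apart.

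The lowest RelA log2 ratio of the 71 regions was in Slc2a1, at -19423 bp (chr4:118761727-118762127, intergenic). RelA was 2.39 RPKM in RelBko cells (23 reads) and 13.2 RPKM in WT cells (93 reads), with 1.32 RPKM in the input, a ratio of 0.182 (0.110 to 0.289) and a log2 ratio of -2.24. As low a log2 ratio was found at 125 of 80885 compared regions. The other 7 compared Slc2a1 regions stayed within 2-fold, down to 9.09 RPKM in RelBko cells and 13.7 RPKM in WT cells at -2889 bp. This region was also the only one of Slc2a1 with at least 2-fold more RelB than RelA in WT cells, at 29.0 RPKM of RelB and 13.2 RPKM of RelA at 1 h. These 2 comparisons share the WT RelA library and are given side by side.

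Pfkfb3 had several intron regions with less RelA in RelBko cells. The called region, at -8948 bp, rested on 10 reads in RelBko cells (1.18 RPKM) and 18 reads in WT cells (2.90 RPKM), with a log2 ratio of -1.01. Stronger regions were not called. At -13909 bp RelA was 4.14 RPKM in RelBko cells and 8.25 RPKM in WT cells (ratio 0.502, 0.325 to 0.768). At -19494 bp it was 18.6 RPKM in RelBko cells and 31.0 RPKM in WT cells (0.600, 0.485 to 0.740). All told, 5 of the 11 compared Pfkfb3 regions had an interval below 1 and 0 had one above 1, against the same 15.0% and 9.13% of all compared regions, whereas the strongest region, at 23618 bp, had a ratio of 1.01 (0.879 to 1.16).

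The third region called lower, Gapdh at -8789 bp, rested on 6 reads in RelBko cells (0.775 RPKM) and 12 reads in WT cells (2.11 RPKM), and its interval held 1 (ratio 0.367, 0.113 to 1.06). The calls of this region and of Pfkfb3 at -8948 bp ended under either scaling, which moves the log2 ratio by at most 0.08. Those of Pgk1 and of Slc2a1 at -19423 bp held under the other pseudocounts, both scalings, the other filters and with 1 read taken off, although the Slc2a1 region lies outside the 10 kb limit. For Hk2, Hif1a and Ldha 0 regions within 100 kb were called, with log2 ratios between -0.76 and 0.61. The 10 Hif1a regions beyond that limit had log2 ratios from -0.37 to 1.19. The highest, at -101663 bp, had 8.28 RPKM in RelBko cells and 3.35 RPKM in WT cells.

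**Figure D3:**
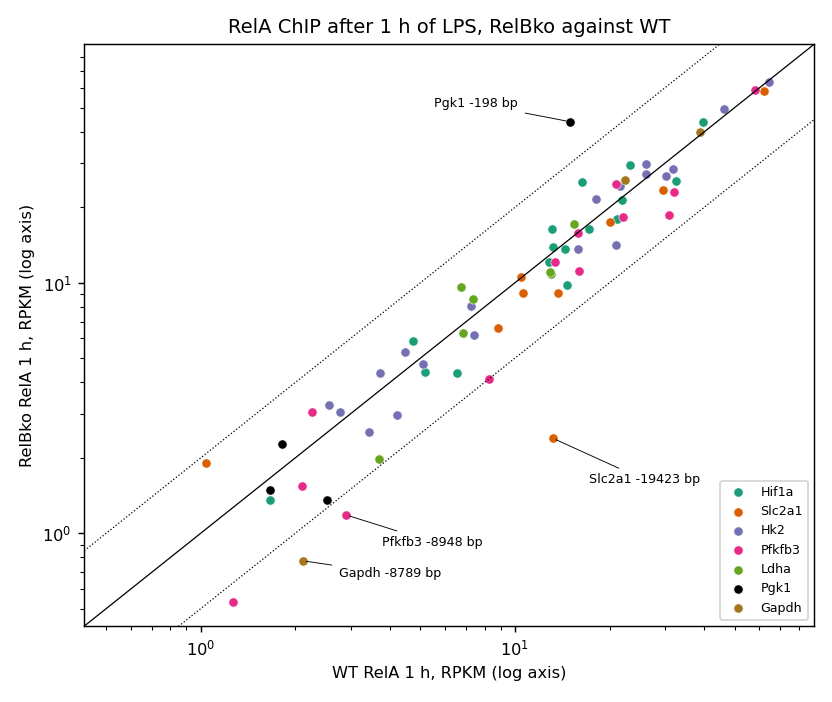
RelA signal of the 71 regions in RelBko cells (vertical axis) against WT cells (horizontal axis) after 1 h of LPS, RPKM on log axes, 1 point per region coloured by gene; the solid line marks equal values and dotted lines a 2-fold difference without the added 0.5 RPKM. The Pgk1 promoter lies far above the lines, at 44.0 RPKM in RelBko cells and 14.9 RPKM in WT cells, and Slc2a1 at -19423 bp far below, at 2.39 RPKM in RelBko cells and 13.2 RPKM in WT cells.

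LPS was set against no treatment in the RelB ChIP of WT cells. RelB was higher at 1 h at 5 of 64 compared regions and lower at 2, against 11.0% higher and 1.68% lower over all compared regions, with a median log2 ratio of 0.16 for the members and 0.14 over all. All 5 higher regions belonged to Hk2 or Hif1a, which held 17 and 16 of the 64 compared regions. They lay more than 10 kb from the TSS, as did most of the 64.

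In Hk2, which codes for the first enzyme of the pathway, several intron sites had more RelB at 1 h. At 27299 bp (chr6:82696957-82697342) RelB was 26.2 RPKM (1 h) and 8.42 RPKM (0 h; ratio 3.11, 2.49 to 3.89), and RelA at 1 h was 30.2 RPKM. At 24509 bp (chr6:82699783-82700096) it was 31.9 RPKM (1 h) and 11.8 RPKM (0 h; ratio 2.70, 2.19 to 3.35). The strongest site, at 21239 bp, had a ratio of 1.90 (1.69 to 2.14), and the site at 4603 bp had 51.1 RPKM (1 h) and 26.3 RPKM (0 h), both under the call. In RelBko cells the site at 27299 bp had 1.33 RPKM of RelB at 1 h and 1.63 RPKM at 0 h. The remaining called Hk2 regions were weak, with 3.92 RPKM (1 h) and 1.18 RPKM (0 h) at -10678 bp (ratio 3.32, 1.71 to 6.84), and 3.70 RPKM (1 h) and 8.48 RPKM (0 h) at -30723 bp (0.436, 0.288 to 0.647).

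Hif1a showed signal in either direction upstream. At -62634 bp (chr12:74939373-74939982) RelB was 12.1 RPKM (1 h) and 3.37 RPKM (0 h; ratio 3.58, 2.73 to 4.75). At -20725 bp (chr12:74981405-74981767) it was 52.8 RPKM (1 h) and 25.3 RPKM (0 h; ratio 2.09, 1.82 to 2.40), a call that ended under either scaling (log2 0.91 and 0.98). The strongest site, only some kb away at -24776 bp, had less at 1 h, with a ratio of 0.651 (0.580 to 0.730) that was not called. At -50347 bp a weak region with 0.80 RPKM (1 h) and 2.13 RPKM (0 h) was called lower on 7 reads at 1 h and 23 reads at 0 h.

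Of the 7 promoters near these genes, 0 were called between times in WT cells. Over all compared regions of any class, 11.0% were called higher and 1.68% lower. The median log2 ratio of the 7 promoters was 0.19. Hif1a at 29 bp had a ratio of 1.34 (1.09 to 1.64), Pfkfb3 at 10 bp 1.33 (1.08 to 1.65) and Gapdh 1.23 (1.10 to 1.38). Ldha at 20 bp had 1.15 (0.941 to 1.41), Hif1a at 56 bp 1.08 (0.898 to 1.30) and Pgk1 0.907 (0.737 to 1.11). The region at the second Ldha promoter was not called either, and all Ldha regions had log2 ratios between -0.58 and 0.82. For Slc2a1, all 8 compared regions had more RelB at 1 h, with log2 ratios of 0.07 to 0.91, where 60.7% of all compared regions were above 0.

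**Figure D4:**
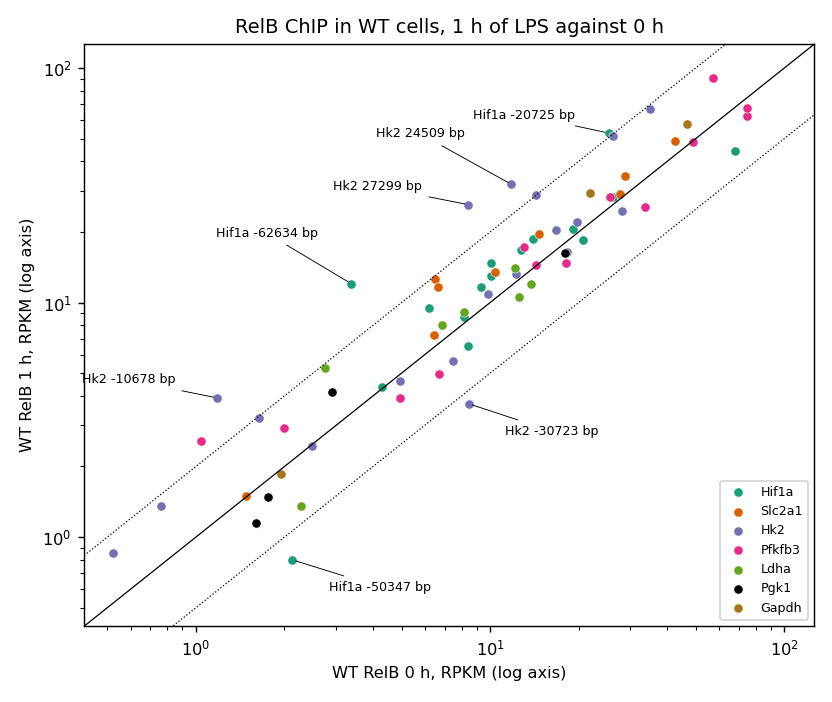
RelB signal of the 71 regions in WT cells at 1 h of LPS (vertical axis) against 0 h (horizontal axis), RPKM on log axes, 1 point per region coloured by gene; the solid line marks equal values and dotted lines a 2-fold difference without the added 0.5 RPKM. Hk2 sites at 27299 and 24509 bp and Hif1a at -62634 bp lie above the upper line, and the Pgk1 promoter lies close to the line of equal values, with 16.3 RPKM (1 h) and 18.0 RPKM (0 h).

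RelB and RelA signal in WT cells at 1 h came from different antibodies, so a ratio between them describes the 2 libraries and not amounts of protein. RelB exceeded RelA 2-fold or more at 3 of 66 compared regions, and RelA exceeded RelB at 5, against 7.21% and 7.45% over all compared regions. The median log2 ratio of RelB over RelA was 0.13 for the members and 0.16 over all.

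Pfkfb3 leaned to RelB, with all 12 compared regions above 0 and a median log2 ratio of 0.66, where 59.7% of all compared regions were above 0. Of the 12, 6 had an interval above 1 and 0 had one below 1, against 27.6% and 17.0% of all compared regions. The lowest values, 0.09 at 517 bp and 0.12 at the promoter, lay below the median of 0.16 over all. Its site at 9378 bp had 67.6 RPKM of RelB and 16.0 RPKM of RelA (ratio 4.24, 3.42 to 5.29; log2 2.05), and 139 of 85014 compared regions leaned as far. Its site at -19494 bp had 62.5 RPKM of RelB and 31.0 RPKM of RelA, just short of the call. RelB at these sites was strong without stimulation too, at 74.4 RPKM for 9378 bp and 74.9 RPKM for -19494 bp at 0 h in WT cells. In RelBko cells RelA at 9378 bp was 11.1 RPKM, against 16.0 RPKM in WT cells (ratio 0.697, 0.519 to 0.935).

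Hk2 held 4 of the 5 regions that leaned to RelA. The strong one lay at 943 bp, with 22.1 RPKM of RelB and 46.4 RPKM of RelA (ratio 0.478, 0.418 to 0.545). The weak ones, at 60005, 39622 and -8729 bp, had 0.86 to 2.44 RPKM of RelB and 2.77 to 7.23 RPKM of RelA. Ldha at 5156 bp (1.35 RPKM of RelB and 3.70 RPKM of RelA) was the fifth. The remaining regions that leaned to RelB were Slc2a1 at -19423 bp (ratio 2.20, 1.74 to 2.79; log2 0.95 and not called when scaled to a median ratio of 1) and Pgk1 at 8595 bp, which rested on 37 reads of RelB and 10 reads of RelA and was not called under either scaling (log2 0.85 and 0.91). Of the 3, Pfkfb3 at 9378 bp alone stayed called when scaled to a median ratio of 1.

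**Figure D5:**
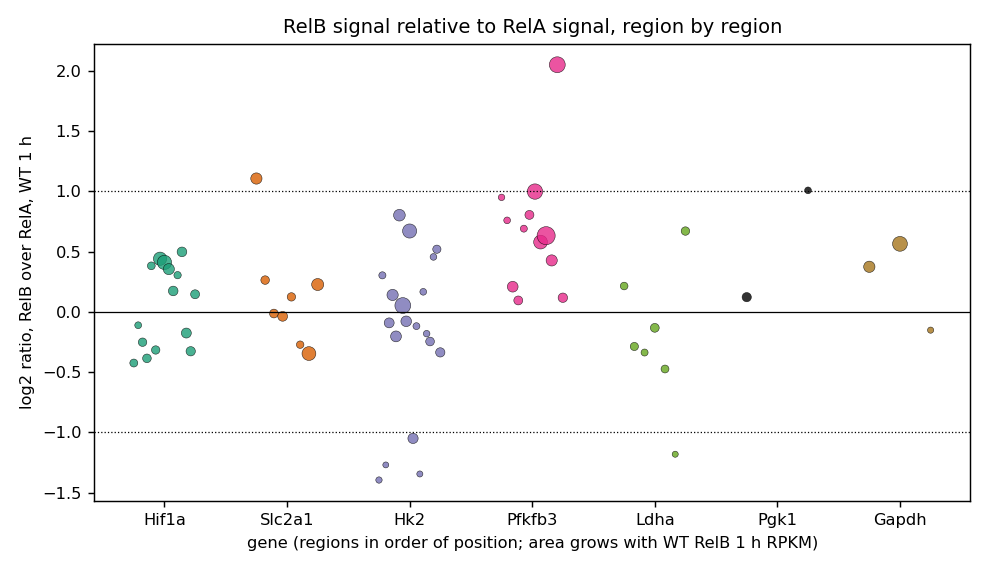
Log2 ratio of RelB over RelA signal in WT cells at 1 h (vertical axis) for each compared region, grouped by gene and ordered by position; point area grows with RelB signal, and dotted lines mark 2-fold. All 12 Pfkfb3 points lie above 0, up to 2.05, and 4 Hk2 points lie below -1.

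Other genes of glycolysis and of the hypoxia response were read at their strongest region within 100 kb. Of 23 other glycolysis genes 22 had a region, and of 24 other hypoxia genes 23 had one. RelA in RelBko over WT cells was called at 0 of 22 glycolysis genes and 0 of 23 hypoxia genes, against 2.85% lower and 0.498% higher over the strongest regions of all genes, with median log2 ratios of -0.08 and 0.09 and of -0.01 over all genes. RelB at 1 h was lower in RelBko cells at 20 of 21 compared glycolysis genes and 23 of 23 hypoxia genes, against 97.9% of all genes, and higher at 0, against 0.0837%. At 0 h it was lower at 20 of 21 and 19 of 23, against 85.7% of all genes, and higher at 0, against 0.179%. In RelBko cells RelB was lower at 1 h than at 0 h at 3 of 12 glycolysis genes and 8 of 19 hypoxia genes, against 44.3% of all genes, and higher at 0, against 0.338%. RelB over RelA in WT cells was called at 0 of 22 glycolysis genes, and among 23 hypoxia genes 1 was higher, Vhl, and 2 were lower, Hif1an and Ero1l, against 5.41% higher and 6.66% lower over all genes.

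Between times in WT cells, RelB was higher at 1 h at 1 of 21 glycolysis genes and 4 of 23 hypoxia genes and lower at 0, against 6.58% higher and 1.09% lower over all genes. The genes named from these counts, and Vhl, Hif1an and Ero1l, were chosen after their values were seen. Adm, which encodes the vasodilator adrenomedullin, had 32.7 RPKM (1 h) and 6.01 RPKM (0 h). Ddit4, an inhibitor of mTOR signalling, had 48.0 RPKM (1 h) and 16.3 RPKM (0 h). Egln3, a prolyl hydroxylase that marks HIF for destruction, had 34.7 RPKM (1 h) and 16.7 RPKM (0 h), with a log2 ratio of 1.03, and Eno2, an enolase, had 24.5 RPKM (1 h) and 10.1 RPKM (0 h).

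The strongest glycolysis genes were Hk1, another hexokinase, with RelA at 63.2 RPKM in RelBko cells and 70.5 RPKM in WT cells, and the transporters Slc2a6 (47.5 RPKM in RelBko cells and 54.8 RPKM in WT cells) and Slc2a3 (35.0 RPKM in RelBko cells and 34.2 RPKM in WT cells). The strongest hypoxia genes were Bhlhe40, a transcriptional repressor (84.1 RPKM in RelBko cells and 78.4 RPKM in WT cells), Pdgfb, a growth factor (52.2 RPKM in RelBko cells and 57.8 RPKM in WT cells), and Ndrg1 (65.8 RPKM in RelBko cells and 54.2 RPKM in WT cells).

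Genes whose strongest region had a pattern most like the mean of the 7 members were sought by Euclidean distance of log2(RPKM + 0.5) over the 7 libraries, among 18215 genes. The nearest were 4930479D17Rik (distance 0.295), C130060C02Rik (0.311), 3110056K07Rik (0.346), 4833418N02Rik (0.350) and Secisbp2l (0.352). The members themselves lay farther from their mean, with Gapdh at 0.746 and Ldha, the weakest, at 2.83.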

How the data were processed

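ChIP-seq signal was measured in 7 libraries of mouse BMDCs. Per the labels, marrow was grown with GM-CSF and IL-4; cells were cross-linked with DSG and PFA. Per the file headers, the authors deposited RPKM values of each library over 93611 regions, with the nearest gene and the distance to its TSS in bp. HISAT2, bedtools, HOMER and the build mm9 appear in the submitters' processing notes; the sources used here give neither their roles nor how regions were chosen. A deposited file of region coordinates was not used.

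RPKM times region length came in equal steps within a library (whole steps for 100% of values, within 0.01), and these steps gave the reads and library totals behind the intervals. No value lay below that of 1 read, so read numbers may be 1 too high; an alternative took 1 read off. Starts were raised by 1 to count from 1.

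Ratios, enrichment and calls were computed in Python 3.11.15 with pandas 2.3.3, NumPy 2.4.6 and SciPy 1.17.1, and checked on simulated reads. All 71 regions were kept. For each gene, the region with the highest mean RPKM over the 6 ChIP libraries and the one nearest the TSS were described in every library, and others singly where called in a comparison with under 1 in 4 regions called; further regions named in the text were chosen after their values were seen. The values of 1 hypoxia gene are not reported here. The members and lists were chosen with earlier results of these data known. Alternatives covered the pseudocount, scaling, the filter on low values, 1 read taken off, the fold of a call and the distance limit.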

Additional observations from a re-analysis of the deposited data

Results flagged for a closer look

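At 1 h the Pgk1 promoter differed in opposite directions between genotypes with the 2 antibodies: the log2 ratio of RelBko over WT was -2.19 for RelB and 1.53 for RelA. It is listed because the same contrast gave a call in each direction. The median RelB log2 ratio over all compared regions was -2.47. Scaled to a median ratio of 1 over those regions, the RelB value was 0.28, the same direction as RelA. Scaled over regions enriched in no ChIP library, it stayed negative, the opposite direction to RelA. More copies of this sequence in RelBko cells cannot be told apart from more binding. The difference between the antibodies was not tested, since each group held 1 library.

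Hif1a at -20725 bp is listed because RelB at 1 h over 0 h was called higher in WT cells (log2 1.05) and lower in RelBko cells (log2 -1.29). The RelBko value rests on 12 reads at 1 h and 31 reads at 0 h. Over all compared regions the RelBko median log2 ratio was -0.93, with 44.1% called lower. The WT call ended under either scaling (log2 0.91 and 0.98), and the RelBko call ended when scaled to a median ratio of 1 over compared regions. The difference was not tested.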

How the results depend on the processing

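No paired analysis was possible because each group held 1 library. Counts are called regions, set against the count as reported, and within 10 kb fewer regions enter by construction. For RelB in RelBko over WT at 1 h (61), scaling to a median ratio of 1 gave 22 and the 10 kb limit 24. At 0 h (55) these gave 13, of which 3 were higher, and 21. For RelA in RelBko over WT (4), a pseudocount of 2 RPKM, either scaling and the stricter filter each gave 2, and a call at 1.5-fold gave 8. For RelB in WT at 1 h over 0 h (7), a pseudocount of 2 RPKM gave 4, a call at 1.5-fold 16 and the 10 kb limit 0. For RelB in RelBko at 1 h over 0 h (11), a pseudocount of 2 RPKM gave 3, the stricter filter 1, scaling to a median ratio of 1 gave 1 (higher), no filter 18, a call at 1.5-fold 20 and the 10 kb limit 5. For RelB over RelA (8), a pseudocount of 2 RPKM and the stricter filter each gave 4, a call at 1.5-fold 17 and the 10 kb limit 5. Enriched regions of RelBko RelB at 0 h (23) became 13 with a pseudocount of 2 RPKM, 1 with the stricter filter and 11 within 10 kb. Those of RelBko RelB at 1 h (3) became 6 with a pseudocount of 0.1 RPKM, 0 with 2 RPKM, 0 with the stricter filter and 1 within 10 kb. Within 10 kb, enriched regions were 23 for RelBko RelA (59 as reported), 24 for WT RelB at 0 h (60), 24 at 1 h (62) and 26 for WT RelA (62). The log2 ratio of RelB in RelBko over WT at 1 h reversed with a median ratio of 1 for the strongest regions of Ldha (0.045) and Pgk1 (0.28). All other settings kept these counts within 1.5 times, and the cause of each change was not tested beyond what the setting does by construction. Of values of single regions under an alternative, 388 stayed within the counting error, 30 moved beyond it and 2 reversed. Only differences of 2-fold or more as reported could count as reversed. Changes of sign in smaller ratios are held in the 388 and the 30. RelBko RelB signal rests on few reads, 1 to 60 per region, which limits these ratios.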
